A study of Mus musculus with 6 samples.

Results

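The transcriptome of the control inner enamel epithelium (IEE) was described from 3 RNA-seq libraries, which are 3 of the 6 libraries of the series. They were chosen by their label alone, as the control samples. The IEE of the mandibular first molar had been cut out of frozen head sections at E18.5 (embryonic day, shortly before birth) by laser capture microdissection, a method that isolates a chosen area of a section under the microscope. These animals carried a floxed Kdf1 gene on both alleles (Kdf1 fl/fl) and no Cre recombinase, on a C57BL/6J background, whereas the sample labels call them WT. The other 3 libraries came from K14-Cre;Kdf1 fl/fl animals, in which keratin 14-driven Cre deletes Kdf1 from epithelial cells, and were not analysed here. The labels name the 3 control libraries as biological replicates, without the number of embryos in each or their sex. With 1 group there is no contrast to test, so the results are levels and the spread between libraries.

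The IEE is the layer of the enamel organ that faces the dental papilla across a basement membrane. At the bell stage its cells proliferate and fold to give the outline of the cusps, leave the cell cycle from the cusp tips downwards, and differentiate into ameloblasts. Ameloblasts secrete the enamel matrix, of which amelogenin is the main protein, while the papilla cells opposite become odontoblasts that secrete dentin. A captured IEE therefore can hold proliferating, post-mitotic and secretory cells in any proportion, together with neighbouring cells at its border.

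Levels are given as TPM, transcript numbers scaled by length to the same total in each library, so that genes can be compared with each other. Values in 3 libraries are listed in the order of replicates 1, 2 and 3. The libraries held 16256590, 16321756 and 16675133 estimated counts over 18152 genes, and a count of 0 allows up to 3 counts, or 0.185, 0.184 and 0.180 CPM (counts scaled to library size), which covers counting error only. In all 3 libraries, 12537 genes (69.1%) reached 1 TPM, and 776 genes had no count in any. Across the 10660 genes with a mean of at least 5 TPM, the median level in replicate 3 was 0.921 times that in replicate 1 and 0.913 times that in replicate 2, a shift of -0.12 and -0.13 on the log2 scale. Replicate 1 was the highest library for 40.2% of these genes, replicate 2 for 41.7% and replicate 3 for 18.2%, and replicate 3 was the lowest for 58.1%. The libraries also stood apart in Y-linked genes, with Eif2s3y at 0, 83.4 and 14.7 TPM and Ddx3y at 0, 26.7 and 4.52 TPM. Replicate 1 thus held next to no Y-linked transcripts and replicate 2 the most.

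All 4 defining markers of the tissue were abundant in every library. Amelx, which encodes amelogenin, was at 4017, 15805 and 32209 TPM. Ambn, which encodes the matrix protein ameloblastin, was at 165, 828 and 1621 TPM. Among the epithelial markers, Krt14, a keratin of basal epithelial cells, was at 1712, 1629 and 2944 TPM, and Cdh1, the cell adhesion protein E-cadherin, was at 353, 284 and 395 TPM. The keratin and the cadherin each stayed within a 2-fold range, whereas both enamel genes were lowest in replicate 1 and highest in replicate 3.

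Amelx was the most abundant gene of the control IEE by mean TPM, at 17344 ± 14159 TPM (SD, n = 3). That place was not held in replicate 1. There Amelx was below Rps26 and Eef1a1, which had means of 13502 ± 1325 and 11799 ± 453 TPM. It was also below further genes in that library. Among them were Rpl41, Rps27 and Rpl23a, with means of 10270 ± 391, 6895 ± 815 and 6341 ± 158 TPM. Amelx took 0.402, 1.58 and 3.22% of all TPM. Its highest library was 8.02 times its lowest, and its coefficient of variation (CV, the SD over the mean) was 81.6%. The bases before its annotated start are shown beside those of 3 other enamel matrix genes, because Amelx, Ambn and Enam were among the 12 genes with the widest ranges between the libraries and Odam had another order. The sequences are those of RefSeq (build GRCm38.p6), the 120 bases before the start of transcription, written 5′ to 3′ on the strand of the gene. Capitals mark the letters TGATTGG, whose end, ATTGG, reads CCAAT on the opposite strand. The stretches lie at chrX:169187210-169187329, minus strand (Amelx), chr5:88455871-88455990, plus strand (Ambn), chr5:88487855-88487974, plus strand (Enam) and chr5:87884890-87885009, plus strand (Odam).
Amelx: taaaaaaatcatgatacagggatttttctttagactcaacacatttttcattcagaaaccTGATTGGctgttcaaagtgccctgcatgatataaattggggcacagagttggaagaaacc
Ambn: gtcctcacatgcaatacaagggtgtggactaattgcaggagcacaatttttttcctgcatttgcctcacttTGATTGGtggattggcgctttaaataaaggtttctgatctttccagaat
Enam: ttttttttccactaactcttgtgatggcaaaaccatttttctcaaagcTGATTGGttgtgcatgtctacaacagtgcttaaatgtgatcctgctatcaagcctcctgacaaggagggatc
Odam: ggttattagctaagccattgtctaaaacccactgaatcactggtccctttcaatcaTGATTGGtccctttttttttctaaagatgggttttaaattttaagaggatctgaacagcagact
Counted from the start of transcription, the letters begin at base -60 in Amelx, -49 in Ambn, -72 in Enam and -64 in Odam. They were picked by eye after these stretches had been read, so their recurrence is a description without a test. Searched on both strands over windows from 250 bases before to 50 after the start, TGATTGG occurred in 7.82% of 32851 RefSeq promoters and in 10.01% of the 12897 promoters of genes detected in every control library. It occurred in 6 of the 11 promoters listed for the enamel matrix genes, among which Dmp1 has 2 and Dspp none. These 6 include all the promoters shown above, from which the letters were picked, so that share was largely fixed by the choice. On the strand of the gene and beginning between bases -100 and -30, a window also set after the positions were seen, it was found in 1.96% of all promoters, in 2.86% of those of the detected genes and in 5 of these 11, the fifth being Amtn. The windows of Mmp20, Klk4, Acp4 and Odaph did not hold these letters. Other stretches were also looked at by eye and were not counted. Among the protein-coding genes of RefSeq, Ambn lies between Amtn and Enam on chromosome 5. Beyond Enam, 3 places from Ambn, lies Utp3, a gene of ribosome assembly, which was at 77.3, 80.3 and 69.7 TPM and did not have the order of Ambn and Enam.

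Enamel matrix genes as a group held 0.524% of all TPM in replicate 1, 1.85% in replicate 2 and 3.69% in replicate 3, with summed levels of 5237, 18451 and 36891 TPM. Apart from Amelx and Ambn, the list holds Enam, which encodes enamelin, the largest enamel matrix protein, at 29.2, 336 and 712 TPM. Mmp20, the protease that processes the matrix during secretion, was at 15.4, 56.4 and 110 TPM. Acp4, a phosphatase required for enamel formation, was at 15.8, 34.6 and 82.3 TPM. All of them were lowest in replicate 1 and highest in replicate 3. Enam had the widest range, 24.4-fold, and its mean was 359 ± 342 TPM.

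Genes of the dentin matrix in the same list did not all follow this order. Dspp, which encodes the dentin proteins DSP and DPP and is also made for a short time by young ameloblasts, was at 200.1, 842 and 1336 TPM, in the order of Amelx. Dmp1, a matrix protein of dentin and bone, was at 23.9, 250.4 and 161 TPM and so was highest in replicate 2. Odam, an ameloblast protein best known from the maturation stage and the junctional epithelium, was at 765, 295 and 655 TPM, which made replicate 2 the lowest. The remaining genes of late amelogenesis were low. Amtn, or amelotin, was at 3.58, 1.03 and 2.55 TPM, the maturation-stage protease Klk4 at 0.77, 1.8 and 1.24 TPM, and Odaph at 1.31, 1.36 and 1.24 TPM. Of the 11 genes, 8 had a mean of at least 5 TPM, and in all 8 the highest library was at least 2 times the lowest, a range reached by 5.53% of all 10660 genes with such a mean. In 6 of the 8, replicate 3 was the highest and replicate 1 the lowest, an order shown by 11.2% of all genes. With replicate 1 left out, the level in replicate 3 was 2.04 times that in replicate 2 for Amelx, 1.96 times for Ambn and 2.12 times for Enam. With replicate 3 left out, replicate 2 was at 3.94, 5.01 and 11.5 times replicate 1 in the same genes.

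Papilla markers summed to 1888, 9012 and 4812 TPM, bone markers to 978, 5483 and 3527 TPM and the Y-linked genes to 0.21, 129 and 23.6 TPM. All of these sums were highest in replicate 2 and, like that of the enamel genes, lowest in replicate 1. The papilla and bone lists are not separate, since both hold Col1a1, at 628, 4161 and 2363 TPM, which made up most of the bone sum. Their part in the levels of the enamel and dentin genes was not tested. Since these are bulk libraries, fewer cells of a type and less RNA per cell cannot be told apart.

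**Figure D1:**
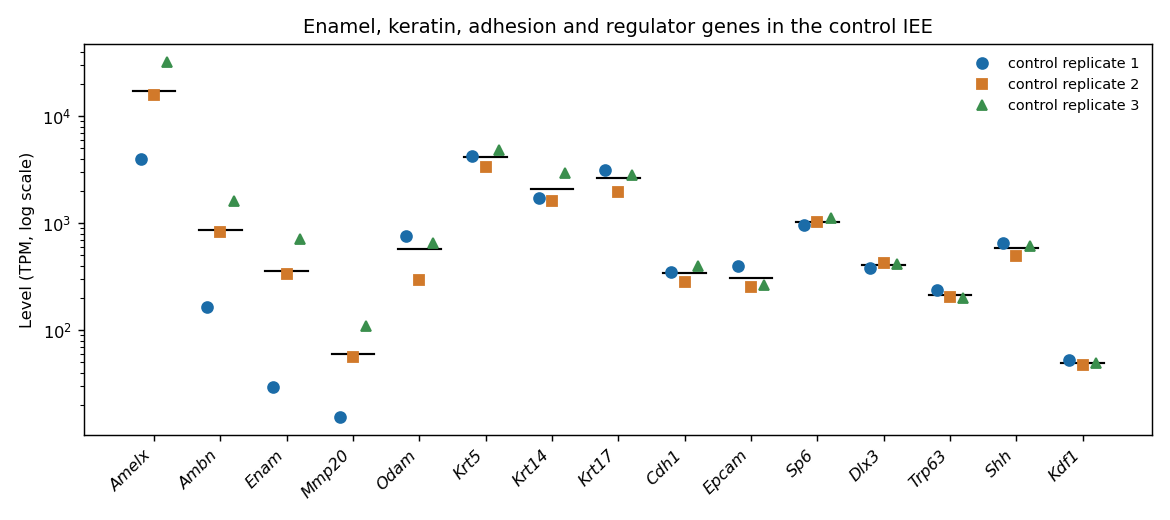
Levels of 15 genes (TPM, log scale) in the 3 control libraries, each symbol a library and each line the mean. The symbols of Amelx, Ambn, Enam and Mmp20 lie far apart, with replicate 1 lowest and replicate 3 highest, whereas those of Sp6, Dlx3, Trp63 and Kdf1 nearly coincide.

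Genes of ion transport and of enamel secretion were spread less. Gja1, the gap junction protein connexin 43, was the highest of them at 1149.5 ± 92.3 TPM. Alpl, the alkaline phosphatase needed for mineralisation, was at 596, 748 and 640.1 TPM. Calb1, a cytosolic calcium buffer, was at 341, 519 and 1497 TPM and had the order of Amelx. Of the enamel genes of the FAM families, Fam20a, a pseudokinase, was at 19.2, 63.4 and 58.6 TPM, lowest in replicate 1. Fam20c, the kinase that phosphorylates secreted matrix proteins, was at 37, 51.9 and 70.04 TPM, and Fam83h, a keratin-associated protein, at 34.2, 30.6 and 36 TPM. The calcium sensor gene Stim1 was at 76.3 ± 11.5 TPM and the bicarbonate transporter gene Slc4a4 at 31.2 ± 4.84 TPM. Slc24a4, the calcium exchanger of maturation-stage ameloblasts, was at 0, 0.040 and 0 TPM, at or near 0. Of the 13 genes of this list with a mean of at least 5 TPM, 3 were at least 2-fold apart (background 5.53%).

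Keratins made up 0.962, 0.716 and 1.1% of all TPM. Of the 13 listed keratins with a mean of at least 5 TPM, 6 were at least 2-fold apart (background 5.53%). Krt5, the type II partner of keratin 14, led at 4128 ± 737 TPM and was the only keratin among the 25 most abundant genes. Krt17, a type I keratin of ectodermal appendages, followed at 3159, 1949 and 2794 TPM and Krt14 at 2095 ± 737 TPM. The ranges of Krt17 and Krt14 overlapped, and Krt14 was the higher of the pair in replicate 3. A gap separated them from Krt80 at 129, 87 and 187 TPM and from the simple-epithelium keratins Krt18 at 94.4, 61.9 and 66.5 TPM and Krt8 at 21.7, 11.6 and 22.3 TPM. Krt75, a keratin of hair follicles that is also found in enamel, was at 32.7, 13.9 and 25.3 TPM. Krt6a was at 93.5, 23.2 and 59.1 TPM, with its near-identical copy Krt6b at 0.29, 0.060 and 0.90 TPM, so the split of reads between the copies is uncertain.

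Krt13 and Krt4, the pair of keratins of the oral lining epithelium, behaved differently from the others. Krt13 was at 0.16, 0.59 and 46 TPM and Krt4 at 0, 0.18 and 22.2 TPM, so both were near 0 in replicates 1 and 2 and clearly present in replicate 3. The keratins of cornified epidermis were low in every library, with Krt10 at 6.23, 6.59 and 6.42 TPM and Krt1 at 3.57, 2.73 and 3.15 TPM. Loricrin (Lor) was at 3.36, 3.65 and 2.94 TPM, and filaggrin (Flg) was at 0.010, 0 and 0.020 TPM. Krtdap, a secreted protein gene of differentiating keratinocytes, was at 13.1, 6.55 and 13 TPM, lowest in replicate 2. Sprr3, a small proline-rich protein gene of the cornified envelope, was at 0, 0 and 2.35 TPM, and so was found in replicate 3 alone, where Krt13 and Krt4 were highest. The list of keratinised epithelium summed to 26.5, 20.3 and 96 TPM.

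Cell junction genes were led by components of adherens junctions and desmosomes. Ctnnb1, or beta-catenin, was at 1287 ± 77 TPM and Perp, a desmosomal membrane protein, at 1135 ± 126 TPM. Cdh1 was at 344 ± 55.9 TPM, Epcam at 402, 252 and 264 TPM, and Cdh3, or P-cadherin, at 218, 164 and 133 TPM. Cdh2, the N-cadherin of mesenchyme and differentiating odontoblasts, was lower at 13.6, 44.3 and 29.6 TPM, with replicate 2 highest. The desmosomal genes Dsp (desmoplakin), Pkp1 (plakophilin 1), Dsc3 (desmocollin 3) and Jup (plakoglobin) had means of 298 ± 49.5 TPM, 232 ± 37 TPM, 229 ± 57.8 TPM and 192 ± 31.3 TPM. Among claudins, the tight junction strand proteins, Cldn1 was at 84.8 ± 7.99 TPM, Cldn6 at 52.5 ± 11.9 TPM and Cldn4 at 40.04, 19.1 and 18.8 TPM, while Cldn3 was at 0.43, 0 and 0.20 TPM. Of the 29 junction genes with a mean of at least 5 TPM, 23 were highest in replicate 1, against 40.2% of all genes, and 2 were at least 2-fold apart (background 5.53%).

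Of 30 genes of the basement membrane and its receptors, 29 were detected at 1 TPM in every library. Bcam, the laminin receptor of the Lutheran blood group, was the highest at 1209.7 ± 197 TPM. Npnt, or nephronectin, a matrix ligand of integrin alpha 8 that has been studied in dental epithelium, was at 328 ± 24.1 TPM. The hemidesmosome genes Itgb4, Col17a1 and Itga6 were at 235 ± 11.3 TPM, 231 ± 9.48 TPM and 148 ± 31.6 TPM. Of the laminin chains of epithelial anchorage, Lamb3 was at 197 ± 18 TPM and Lama3 at 23.8 ± 5.21 TPM. The type IV collagen genes Col4a1 and Col4a2 were at 259 ± 47 TPM and 201 ± 30.4 TPM. Of 27 genes with a mean of at least 5 TPM, 1 was at least 2-fold apart, Nid1 at 46.8, 62 and 29.6 TPM, a share near the 5.53% of all genes.

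Sp6, also called epiprofin and required for ameloblast differentiation, was the most abundant of the 41 transcription factor genes listed for dental epithelium. It was at 953, 1032 and 1113 TPM, ranked 130 of all 18152 genes, and had a mean of 1033 ± 79.6 TPM. Dlx3, a homeobox gene whose human mutations affect hair and teeth, was at 380, 422 and 416 TPM. In every library Sp6 exceeded Dlx3, and their ranges did not overlap. Dlx2, whose range overlapped that of Dlx3, was at 475, 376 and 314 TPM, Msx2, which is needed for the enamel organ, at 279, 311 and 242 TPM, and Dlx5 at 291, 312 and 207 TPM. Tbx1, which is required for incisor enamel, was at 307, 272 and 200.2 TPM, Satb1 at 228, 252 and 292 TPM and Pitx1 at 272, 198 and 194 TPM. From Msx2 down to Trp63, each gene's range overlapped that of the next, so their order was not resolved. Trp63, the master regulator of stratified epithelia that includes p63, was at 213 ± 20.2 TPM, and Klf4 at 176 ± 25.2 TPM.

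A lower tier of regulators lay between 5 and 100 TPM. Cux1 was at 81.9 ± 11.4 TPM, Dlx4 at 66.7 ± 9.85 TPM, Foxi3, a target of ectodysplasin signalling, at 48.4 ± 5.3 TPM, and Tfap2a at 68, 47.1 and 32.6 TPM. Sox21, which acts in ameloblast fate, was at 15.7, 18.45 and 49.4 TPM, so that replicate 3 was the highest by a wide margin. Runx1 was at 25.7 ± 1.69 TPM, the grainyhead gene Grhl2 at 21.9 ± 4.2 TPM, and Bcl11b, also needed for ameloblast development, at 19.7 ± 2.11 TPM. Lef1, the nuclear partner of beta-catenin, was at 10.2 ± 1.56 TPM. Some regulators known from dental epithelial stem cells and early placodes were low. They do not stand for all genes of early tooth epithelium, and Dlx2, Tbx1, Foxi3 and Lef1, given above, were higher. Sox2, the marker of dental epithelial stem cells, was at 2.8, 0.80 and 0.69 TPM, Lhx2 at 0.70, 0.38 and 0.50 TPM, Isl1 at 0.19, 0.34 and 0.13 TPM, Gata3 at 0.22, 0.53 and 0.45 TPM and Sp8 at 0.030, 0 and 0 TPM. Of the 33 members with a mean of at least 5 TPM, 3 were at least 2-fold apart, Sox21, Tfap2a and Dlx6, or 2 after rescaling by TMM factors (background 5.53%), and all 41 genes of the list summed to 4862, 4823 and 4498 TPM.

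**Figure D2:**
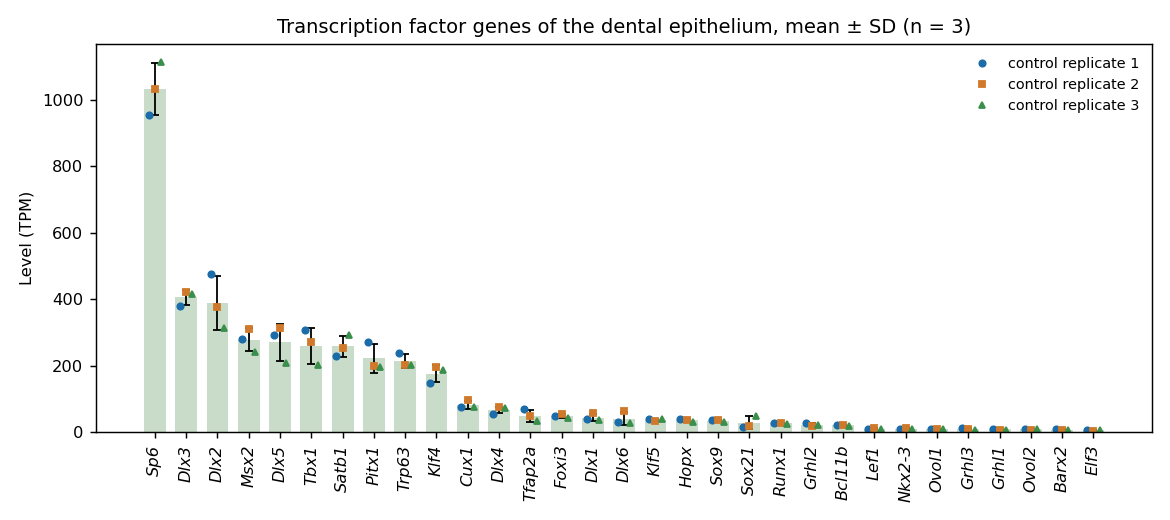
Mean level (TPM, bars from 0, error bars SD, n = 3) of the transcription factor genes of dental epithelium with a mean of at least 5 TPM, with each library as a symbol, for 31 of the 33 genes. Sp6 stands alone at the left at 1033 TPM, and the bars from Msx2 to Trp63 have overlapping symbols.

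Homeobox families differed in how many members were expressed. Of 25 Hox genes in the table, 23 had a mean under 1 TPM, and only Hoxc13, which acts in hair and nail, reached 1 TPM in every library, at 2.15, 2.65 and 4.38 TPM. All 6 Dlx genes were detected, and their sum was 1268, 1304 and 1071 TPM. Among the Iroquois genes, Irx5 was at 192, 183 and 238 TPM, Irx1 at 88.7, 45 and 64.3 TPM and Irx4 at 0.050, 0 and 0.10 TPM. Of 8 Pax genes, 7 had a mean under 1 TPM, and the odontogenic mesenchyme gene Pax9 was at 1.89, 4.29 and 1.65 TPM.

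Signalling genes of the enamel knot and the IEE ranged from abundant members to members at or near 0. Shh, the Sonic hedgehog ligand that the IEE sends to itself and the papilla, was at 652, 489.8 and 609 TPM. Sostdc1, an inhibitor of BMP and WNT signals that limits tooth number, was at 620, 543 and 367 TPM. The WNT ligands Wnt6 and Wnt10a were at 159, 176 and 253 TPM and 69.3, 91.5 and 157 TPM, both highest in replicate 3. Bmp7 was at 91.5 ± 16 TPM, Bmp4 at 63.1 ± 12.4 TPM and Bmp2 at 3.54, 25.7 and 13.9 TPM. Wnt10b, another WNT ligand, was at 26, 5.03 and 5.52 TPM, higher in replicate 1 than elsewhere. Cdkn1a, the cyclin-dependent kinase inhibitor p21, which marks enamel knots and post-mitotic cells, was at 181, 380.3 and 521 TPM. Its range was 2.88-fold and in the order of the enamel matrix genes. The FGF ligands of the knot were low, with Fgf9 at 7.45, 3.99 and 4.23 TPM, Fgf4 at 0.59, 0 and 0 TPM and Fgf20 listed at 0 in every library. Fgf3, which the papilla also makes, was at 3.73, 19.5 and 1.31 TPM, highest in replicate 2. The knot antagonist Dkk4 was at 1.24, 0 and 0 TPM. Of the 11 listed knot genes with a mean of at least 5 TPM, 5 were at least 2-fold apart (background 5.53%).

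Receivers and targets of hedgehog signalling accompanied the ligand. The receptor gene Ptch1 was at 85.3, 128 and 75.5 TPM, the transducer Smo at 118 ± 10.8 TPM, and the target and effector Gli1 at 143, 169 and 153 TPM. Gli3 and Gli2 were lower, at 21.9 ± 3.36 TPM and 11.5 ± 1.24 TPM. Of the 13 pathway genes with a mean of at least 5 TPM, 0 were 2-fold apart, which is near the background of 5.53%.

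FGF signalling was represented by receptors and feedback genes more than by ligands, with exceptions. The ligand gene Fgf1 had a mean of 27.3 TPM, above the receptor gene Fgfr3 at 12.9 TPM and the feedback gene Spry4 at 11.7 TPM. Fgfr1 was at 566 ± 40.1 TPM and Fgfr2 at 109 ± 9.15 TPM. The target Etv4, a transcription factor, was at 134, 107 and 66.9 TPM, and Dusp6, a phosphatase that limits the signal, at 65.2, 59.3 and 45.6 TPM. The Sprouty feedback inhibitors Spry1, Spry2 and Spry4 were at 66.4, 52.7 and 42.3 TPM, at 51, 35.9 and 25.8 TPM and at 15.4, 12.7 and 6.9 TPM. Each of these 5 targets was highest in replicate 1 and lowest in replicate 3. In the FGF list, 4 of 12 genes with a mean of at least 5 TPM were at least 2-fold apart (background 5.53%). After rescaling by TMM factors, 3 were. Over the 12 genes of the list with a mean of at least 5 TPM, 10 were lowest in replicate 3 (background 58.1%) and the median ratio of replicate 3 to replicate 1 was 0.602, against 0.921 for all genes.

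The BMP and TGF-beta targets Id3, Id1 and Id2, inhibitors of differentiation factors, were at 747 ± 131 TPM, 485 ± 42.2 TPM and 342 ± 30.7 TPM. Bambi, a decoy receptor, was at 286, 362 and 360.3 TPM, and Tgfb1 at 216 ± 18.6 TPM. Among WNT components beside beta-catenin, the frizzled receptor genes Fzd2, Fzd6 and Fzd7 were at 78.6 ± 16.9 TPM, 53.9 ± 4.98 TPM and 42.6 ± 11.6 TPM. The feedback target Axin2 was at 16.7, 17.2 and 13.9 TPM. Of the 28 listed WNT genes with a mean of at least 5 TPM, 8 were at least 2-fold apart (background 5.53%). The same held for 4 of the 28 BMP and TGF-beta genes, or 3 after rescaling by TMM factors. It held for 4 of the 28 genes listed for ectodysplasin, Notch and growth factors, or 3 after that rescaling. For ectodysplasin, the pathway behind hypohidrotic ectodermal dysplasia, the receptor gene Edar was at 4.96, 2.24 and 2.16 TPM, its adaptor Edaradd at 28.4, 21.9 and 16 TPM and the ligand gene Eda at 6.63 ± 0.695 TPM. Jag2 and Notch2, a ligand and a receptor of Notch signalling, were at 158 ± 12.7 TPM and 108 ± 17.6 TPM. Igfbp5 and Igfbp2, binding proteins of insulin-like growth factors, were at 514 ± 39.6 TPM and 447 ± 103 TPM, well above the receptor gene Igf1r at 49.5 ± 5.95 TPM.

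Kdf1, the keratinocyte differentiation factor whose deletion the series studies, was at 53.2, 47.1 and 48.9 TPM in the controls. Its mean of 49.7 ± 3.15 TPM placed it at rank 3447 of 18152 genes, and its range of 1.13-fold was less than that of Krt14 and Cdh1. In the PI3K/AKT/mTOR pathway, which relays growth factor signals, Akt1 was the main Akt gene at 240.3 ± 17.2 TPM, above Akt2 at 74.8 ± 7.63 TPM, with no overlap between them. The catalytic subunit gene Pik3ca was at 12.7 ± 0.715 TPM, Pik3cb at 6.48 ± 0.51 TPM and Pik3cd at 5.34 ± 0.82 TPM. The regulatory subunit genes Pik3r2 and Pik3r1 were higher, at 80.4 ± 4.51 TPM and 62.2 ± 5.14 TPM. Mtor was at 21.8 ± 0.522 TPM and the forkhead gene Foxo1, which AKT inhibits, at 101 ± 5.36 TPM. Of the 33 genes of this list with a mean of at least 5 TPM, 0 were 2-fold apart (background 5.53%).

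By mean TPM, transcripts for protein synthesis dominated the most abundant genes after Amelx. Ribosomal protein genes filled 17 of the 25 highest places and 67 of the 100 highest, and the 87 cytosolic ribosomal protein genes held 24.4, 22.3 and 23.4% of all TPM. Eef1a1, the elongation factor that delivers transfer RNA to the ribosome, ranked 3 at 11799 ± 453 TPM, and Tpt1, a translationally controlled tumour protein gene, ranked 9 at 5665 ± 379.9 TPM. Others among the 25 were Ppia, the protein-folding enzyme cyclophilin A, at 4246 ± 344 TPM, S100a11, a calcium-binding protein gene, at 4238 ± 328 TPM, Ptma, the nuclear protein prothymosin alpha, at 3509 ± 442 TPM, and Krt5. Short transcripts such as those of Rps26 at 13502 ± 1325 TPM, Rpl41 at 10270 ± 391 TPM and Rps27 at 6895 ± 815 TPM gain in TPM from division by a small length, and Rps26 had a mean of 23039 counts against 168773 for Eef1a1 and 88275 for Amelx. Rps6 was at 79.3 ± 5.1 TPM and its pseudogene Rps6-ps4 at 4392 ± 132 TPM, and since reads of near-identical copies cannot be told apart the Rps6 level is uncertain. The 10 most abundant genes held 8.13, 8.41 and 10.4% of all TPM and the 100 most abundant 33.2% ± 1.55 (SD, n = 3). A search by name found no genes encoded by the mitochondrial genome in the table, so these shares leave them out.

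Genes of the S and G2/M phases were expressed in every library and were lowest in replicate 3. Among G2/M genes, Mki67, the proliferation marker Ki-67, was at 101, 88 and 49.7 TPM. Ube2c, which drives cyclin destruction in mitosis, was at 434, 377 and 229 TPM, Top2a, the DNA-untangling enzyme of dividing cells, at 123, 115 and 69.7 TPM, and the mitotic kinase gene Cdk1 at 40.2, 38 and 23.4 TPM. Replicates 1 and 2 were closer to each other than to replicate 3, the lowest. All 30 G2/M genes were lowest in replicate 3 (background 58.1%), also after rescaling by TMM factors. At least 2-fold apart were 2 of them, and 0 after that rescaling (background 5.53%). Their summed level was 2736, 2468 and 1491 TPM, and the median ratio of replicate 3 to replicate 1 was 0.546, against 0.921 for all genes.

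S-phase genes differed by less. Pcna, the sliding clamp of replication, was at 262, 241 and 205 TPM, the helicase gene Mcm6 at 102, 92.9 and 70.7 TPM and Rrm1, which makes deoxyribonucleotides, at 103, 97.9 and 66.6 TPM. All 30 were lowest in replicate 3, or 29 after rescaling by TMM factors, with a median ratio to replicate 1 of 0.722 and 0 genes 2-fold apart (background 5.53%). Between replicates 1 and 2, the median ratio was 0.933 for the G2/M genes and 0.946 for the S-phase genes, so the difference rested on replicate 3. The G1 regulators did not move as one group. Cdk4 was at 649, 644 and 566 TPM, the cyclin gene Ccnd1 at 309, 273 and 206 TPM, and the inhibitor gene Cdkn1b (p27) at 97, 85.7 and 90.4 TPM, whereas Cdkn1a, given above, was highest in replicate 3.

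Genes of the endoplasmic reticulum (ER) and secretion were mostly highest in replicate 3. Calr, the chaperone calreticulin, was at 1395, 1445 and 2124 TPM, Hspa5, the chaperone BiP, at 663, 674 and 1027 TPM, and Pdia3, a disulphide isomerase, at 1005, 1054 and 1348 TPM. Xbp1, a transcription factor of secretory cells, was at 126, 165 and 216 TPM, in the order of Amelx. Of 22 genes, 16 were highest in replicate 3 (background 18.2%) and 11 had the full order of Amelx (background 11.2%), and 0 were 2-fold apart, or 1 after rescaling by TMM factors (background 5.53%). The list summed to 7656, 8243 and 10222 TPM. Replicate 3 thus combined the highest enamel matrix and secretory sums with the lowest S-phase and G2/M sums among the 3 libraries. Replicate 1 had the opposite places in these sums, but apart from the enamel sum it lay close to replicate 2. The ratio of replicate 2 to replicate 1 was 3.52 for the enamel matrix sum. It was 1.08 for the ER sum, 0.940 for the S-phase sum and 0.902 for the G2/M sum. The G1 regulators summed to 1931, 2125 and 2026 TPM, lowest in replicate 1. The oral keratin genes Krt13 and Krt4, and Sprr3, were above 1 TPM in replicate 3 alone, and their part in these differences was not tested.

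**Figure D3:**
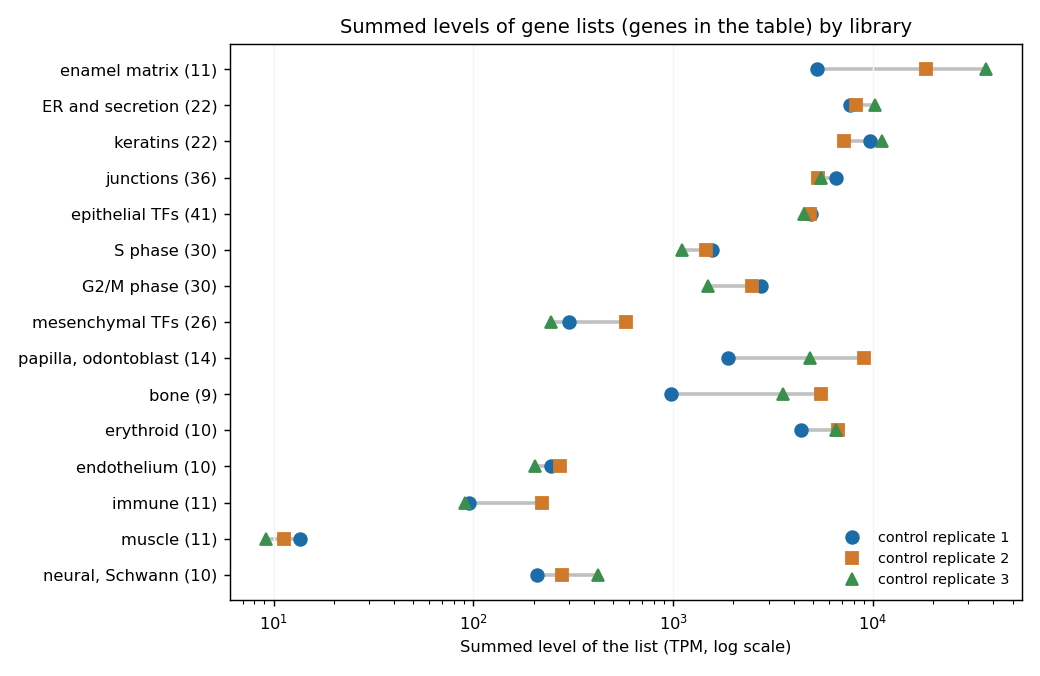
Summed levels (TPM, log scale) of 15 gene lists in the 3 control libraries, with the number of genes in brackets and a grey line from the lowest to the highest library. The enamel matrix list runs from 5237 to 36891 TPM, whereas the junction and epithelial transcription factor lists span a narrow range.

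Markers of dental papilla and odontoblasts were present in every library and highest in replicate 2. The collagen genes Col1a1 and Col1a2 of fibrous matrix were at 628, 4161 and 2363 TPM and 284, 2039.6 and 1406 TPM. Vim, the intermediate filament of mesenchyme, was at 475, 888 and 439 TPM, and the small proteoglycan genes Lum and Dcn at 181, 783 and 160.4 TPM and 84.9, 539.5 and 248 TPM. Replicate 2 was well above both other libraries for Lum, whereas replicate 3 lay between the others for Col1a1. All 13 papilla markers with a mean of at least 5 TPM were highest in replicate 2 (background 41.7%). Of these, 12 were at least 2-fold apart, or 11 after rescaling by TMM factors (background 5.53%). The list summed to 1888, 9012 and 4812 TPM. The sum, which the collagen genes dominate, was higher in replicate 3 than in replicate 1, whereas the median ratio of replicate 3 to replicate 1 over these markers was 0.923, against 0.921 for all genes.

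Mesenchymal transcription factors had the same high library at much lower levels. Barx1, a homeobox gene of molar mesenchyme, was at 40.8, 132 and 33 TPM, Msx1 at 22.9, 66.6 and 22.5 TPM and Foxf1 at 17.3, 38.5 and 16.9 TPM, each with replicates 1 and 3 close together. Of 12 such genes with a mean of at least 5 TPM, 11 were highest in replicate 2 (background 41.7%), and the exception was Snai2, which epithelia also use, at 107, 84.2 and 90.1 TPM. Their sum of 299.6, 582 and 245 TPM compares with 4862, 4823 and 4498 TPM for the epithelial factors, although the lists differ in length. Over the collagen family, 17 of 29 genes with a mean of at least 5 TPM were at least 2-fold apart (background 5.53%) and 20 were highest in replicate 2 (background 41.7%).

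Of 9 bone and mineralised matrix genes, 7 were highest in replicate 2 (background 41.7%). At least 2-fold apart were 7 of the 9, or 6 after rescaling by TMM factors (background 5.53%). Bglap, or osteocalcin, which odontoblasts and osteoblasts share, was at 78.9, 674 and 712 TPM, Sp7, the osteoblast factor osterix, at 39, 122 and 53.4 TPM, and Phex, an endopeptidase of bone and teeth, at 4.01, 38.2 and 29.3 TPM. The exceptions to replicate 2 as the highest were Bglap, highest in replicate 3, and Ibsp, bone sialoprotein, at 121, 108 and 90.3 TPM. Of 8 cartilage genes, 5 had a mean under 1 TPM, among them Comp at 0.15, 0.050 and 0.090 TPM and Matn1 at 0, 0.060 and 0 TPM. The other 3 were the collagen genes Col11a1 at 31.1, 116 and 59.5 TPM, Col2a1 at 8.0, 9.11 and 6.81 TPM and Col9a2 at 3.75, 16.3 and 2.57 TPM, each highest in replicate 2. The osteoclast genes Acp5 and Ctsk were at 34.3, 36.8 and 21.5 TPM and 29.1, 40.4 and 17.2 TPM.

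Blood and vessel transcripts were found at every capture. The adult alpha and beta globin genes Hba-a1 and Hbb-bs were at 1750.1, 2793 and 2727 TPM and 1338, 1905 and 1699.7 TPM, and reads shared between the near-identical globin copies make the split between them uncertain. The red-cell membrane gene Slc4a1 was at 1.79, 0.90 and 0.38 TPM. The endothelial genes Cdh5 and Pecam1 were at 49.4, 57.7 and 34.3 TPM and 36.1, 42.9 and 29.7 TPM, and all 10 endothelial markers were detected. Macrophage genes were low, with C1qa at 13.5, 28.4 and 12 TPM and Csf1r at 3.0, 9.04 and 2.46 TPM. All 8 immune markers with a mean of at least 5 TPM were highest in replicate 2 (background 41.7%), and the list summed to 95.4, 221 and 91 TPM.

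Several lists of other neighbouring tissues had low sums. The 11 skeletal muscle genes summed to 13.5, 11.3 and 9.16 TPM, the 5 salivary genes to 0.81, 1.48 and 1.6 TPM and the 4 melanocyte genes to 4.08, 4.18 and 3.93 TPM, and the 8 neutrophil genes to 24.6, 22.4 and 18.52 TPM. The pericyte list was higher and summed to 238, 199.5 and 211 TPM, led by Acta2, smooth muscle actin, at 126, 56.7 and 116 TPM. The Schwann cell factor Sox10 was at 0.040, 0.050 and 0.040 TPM. The list of neural and Schwann genes summed to 208.8, 276.5 and 418.5 TPM, led by the tubulin gene Tubb3 at 163, 227 and 361 TPM. Of 18 genes listed for the layers of the enamel organ, some of which the IEE shares, 17 were detected. Of the 17 with a mean of at least 5 TPM, 6 were at least 2-fold apart (background 5.53%). After rescaling by TMM factors, 5 were. Sfrp5, a secreted WNT inhibitor, was at 27, 39 and 16 TPM.

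The spread between control libraries exceeded counting error for most genes. The CV had a median of 10.3% over the 10660 genes with a mean of at least 5 TPM, against a median of 3.69% from counting alone, and 87.8% of genes lay above their own counting value. These CVs come from TPM without TMM rescaling, so they also hold the lower median level of replicate 3. The part of that shift in the excess was not tested. The libraries were therefore not copies of one another, and every pair correlated at a Pearson r of 0.979 or 0.980 of log2 TPM across the 12537 detected genes, which are not independent replicates. Over all genes the biological CV from edgeR, which removes the counting part, was 18.9% (13351 genes). As 1 value over all genes, it can be raised by strongly varying genes. In simulated libraries with a true value of 15% the estimate was 14.85%. It was 20.26% once 100 genes were changed 4-fold and 100 others 8-fold in 1 library. The part of genes such as Amelx and Enam in the 18.9% was not tested. The median CV was 20.9% at 1 to 5 TPM, 9.39% at 20 to 100 TPM and 6.31% for the 135 most abundant genes.

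Most genes differed little between the libraries. Of the 10660 genes, 83.6% lay within a 1.5-fold range. The 12 genes with the narrowest ranges among those with a mean of at least 20 TPM included Pus1 at 30.2, 30.2 and 30.3 TPM, Hdac3 at 116, 116 and 116 TPM, Magoh at 240, 239 and 241 TPM and Sod1 at 612, 615 and 614 TPM. The ranges of these 12, 1.002-fold to 1.008-fold, are narrower than counting error alone gives at their counts. They were picked as the narrowest of 6797 genes with such a mean, so they do not show that these genes are unusually stable. Genes at least 2-fold apart numbered 589 (5.53%), and 357 of them were highest in replicate 2.

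The 12 widest ranges, among genes with a mean of at least 20 TPM, included enamel, bone and Y-linked genes. Eif2s3y, at 0 in replicate 1, has no ratio. Beside Enam, Ambn, Amelx, Dmp1, Phex and Bglap, given above, they were Crabp1, Rspo4, Omd, Lox and Fbn2. Crabp1, a retinoic acid binding protein gene, was at 25.8, 77.3 and 3.41 TPM, and Rspo4, a WNT agonist needed for nails, at 3.2, 64.1 and 5.35 TPM. Omd, the matrix proteoglycan osteomodulin, was at 23.1, 136 and 12 TPM, Lox, the collagen cross-linking enzyme, at 4.01, 44.2 and 27.5 TPM, and Fbn2, a microfibril protein, at 12.1, 65.6 and 7.19 TPM. All 5 were highest in replicate 2, as the papilla markers were. With replicate 2 left out, 251 genes were at least 2-fold apart, with replicate 1 left out 350, and with replicate 3 left out 343.

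**Figure D4:**
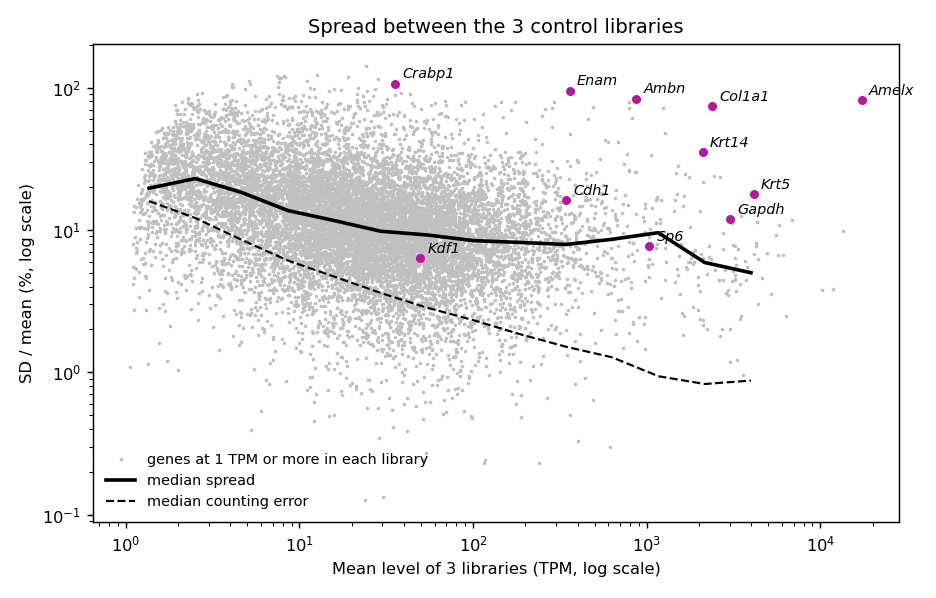
Spread between the 3 control libraries (SD over mean, %, log scale) against mean level (TPM, log scale), each grey dot a gene at 1 TPM or more in every library, with the running median (solid) and the median counting error (dashed). The named genes Amelx, Ambn, Enam and Col1a1 lie near the top, and Kdf1 lies below the solid line.

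**Figure D5:**
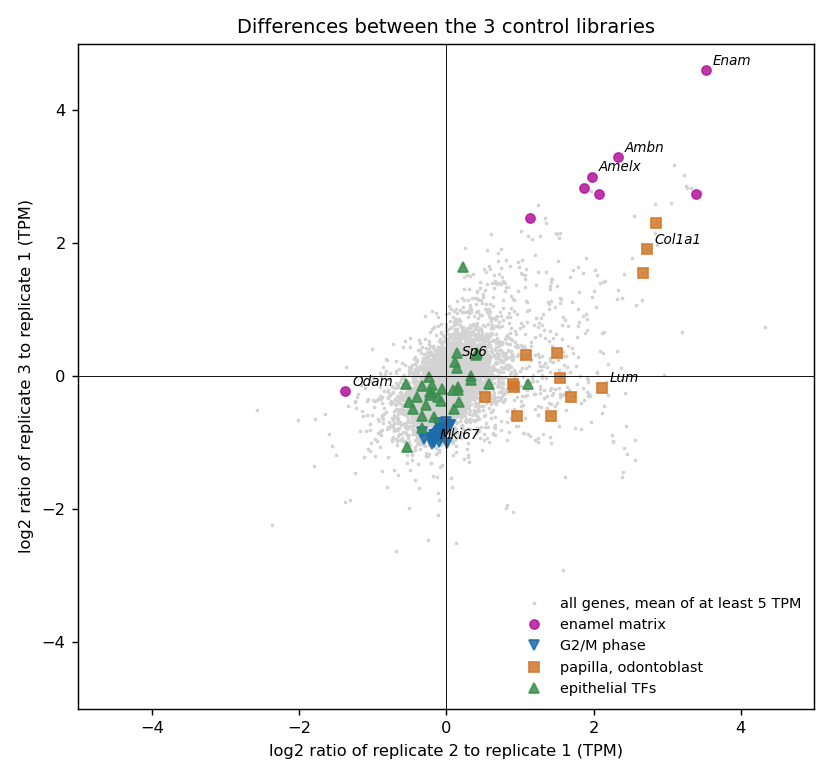
Log2 ratios of replicate 2 to replicate 1 (horizontal) and of replicate 3 to replicate 1 (vertical) for 10657 genes with a mean of at least 5 TPM and no 0, of which 2 fall outside the axes. Enamel matrix genes other than Odam lie in the upper right, G2/M genes in a tight group below 0, and papilla markers to the right.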

How the data were processed

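RNA-seq of laser-captured IEE was analysed in the 3 control libraries, grouped by their sample titles. The authors deposited 1 table of 18152 genes. Its estimated counts, which the authors did not normalise and of which 10.9 to 11.2% were not whole, were rounded for edgeR. The deposited TPM values, scaled by length and library, were used for levels, and the deposited FPKM values were used only for an alternative scaling. The table also holds the authors' group means, which were not used. The submitters' processing notes name BWA 0.7.12, Picard 2.6.0 and StringTie, and the genome build is not given in the sources used here. Libraries were made from total RNA extracted with TRIzol.

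Levels are means ± SD (n = 3) and no test was run, since 1 group gives no contrast. Genes at 1 TPM in every library were called detected, and ranges were counted over genes with a mean of at least 5 TPM. The biological CV is the square root of the common dispersion of edgeR 4.0.16 (R 4.3.3, TMM scaling, filterByExpr, intercept only), tested on simulated data. TMM factors were 1.017, 1.011 and 0.972. Tables and plots were made with pandas 2.3.3 and matplotlib 3.10.9 in Python 3.11.15.

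The members, the 36 gene lists, the 27 gene families and the rule for named genes were chosen with earlier results of these data known. The rule names the 4 given markers and Kdf1, the 25 most abundant genes, up to 12 members of each list or family in order of level and those under 1 TPM, and the 12 widest and 12 narrowest ranges at a mean of at least 20 TPM. Some genes that the rule names are not reported here, though list counts and sums include them. Any other gene was named after its values were seen, as were the 2 lists of the closing section. By identifier, 18102 genes matched RefSeq. Alternatives were other minimum levels, scalings and folds, and the omission of each library in turn.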

Additional observations from a re-analysis of the deposited data

How the results depend on the processing

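The number of detected genes was between 10190 and 13269 under the other minimum levels, in FPKM and with any library left out, within 1.5 times the 12537 reported. The share of the 100 most abundant genes was 16.7% by counts and 22.8% without haemoglobins and cytosolic ribosomal proteins, and 32.3 to 33.9% with a library left out. The biological CV was 20.3% without the filter on low counts and 18.1 to 19.2% with a library left out. The other scalings and the minimum of 10 counts gave 18.9 to 19.1%. Its alternatives were judged against the SD of the values with a library left out. The 589 genes at least 2-fold apart became 1355 at a mean of at least 1 TPM, 220 at a mean of at least 20 TPM and 214 at 3-fold, and 251 to 350 with a library left out. They were 552 in TMM-scaled CPM, 546 in FPKM and 484 with 1 TPM added. Summed levels were recomputed for the cell type marker, enamel matrix, S-phase, G2/M and ER lists. These sums, and the levels of named genes, stayed within 1 SD under FPKM and TMM rescaling. FPKM rescaled to the same total is TPM again, and TMM factors of 0.972 to 1.017 move a mean of 3 little. Nor can a mean of 3 leave that range when 1 library is dropped, so these results say nothing on stability. After TMM rescaling replicate 3 was the highest library for 26.4% of genes and the lowest for 47.7%, and the median ratio of replicate 3 to replicate 1 was 0.964. The order of the libraries in the summed level was kept in 33 of 36 lists after TMM rescaling of TPM, and in 25 of 36 in TMM-scaled CPM, which weights long genes more. Among the 11 that changed in CPM, replicate 3 was the highest for the epithelial transcription factors, the BMP and TGF-beta list and the G1 regulators. No paired analysis was possible because 1 group is described and no result comes from a test.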

Other observations

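A pair of lists was chosen after the data had been seen. Of 17 genes of retinoic acid synthesis, breakdown and response, Cyp26a1, the enzyme that degrades retinoic acid, stood far above the rest at 635, 604 and 993 TPM. Its relative Cyp26c1 was at 67.8, 51.9 and 27.1 TPM and Cyp26b1 at 0.88, 0.94 and 0.64 TPM. The synthesis genes were much lower, with Aldh1a3 at 21.4, 20.5 and 8.47 TPM, Aldh1a1 at 6.38, 10.2 and 7.77 TPM and Aldh1a2 at 3.58, 2.65 and 1.06 TPM. Among the receptors, Rarg was at 93.9, 136 and 98.4 TPM and Rara at 55.2, 58.4 and 56.3 TPM. Degradation of retinoic acid was thus represented by a transcript at rank 179 of the table, and the libraries did not follow 1 order over the list.

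Of 12 genes in common use as references, 0 were 2-fold apart, near the 5.53% of all genes, and the median range was 1.14-fold. Hprt, a purine salvage enzyme, was at 118, 114 and 121 TPM and Ywhaz, a 14-3-3 protein, at 337, 367 and 344 TPM. B2m, the light chain of class I antigen presentation, had the widest range at 158, 230.4 and 131 TPM, with replicate 2 highest, as for the immune markers. Gapdh, the glycolytic enzyme, was at 3316, 3085 and 2614 TPM.

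Clu, the secreted chaperone clusterin, was noticed outside the lists at 288, 681 and 1724 TPM. Its range of 5.99-fold was in the order of Amelx. The 3 control libraries were captured under 1 label and stage, and the labels give no section position or cusp for any of them.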
